A study of Homo sapiens with 4 samples.

Results

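The alpha-arrestin genes ARRDC1, ARRDC2, ARRDC3, ARRDC4 and TXNIP were followed in HepG2 cells after inhibition of the microRNA miR-191. The 5 genes were chosen by symbol, as the arrestin-domain family around ARRDC3, because the difference of ARRDC3 between anti-miR-191 and control arrays is among the largest on the arrays. All 5 were found among 18417 genes named by a single symbol, each by 1 row of the value table, and all 5 were bright enough to be among the 14147 genes tested. Because the contrast of anti-miR-191 with control chose them, their differences in that contrast are given as a description, without a test.

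HepG2 is an established liver tumour line. An antisense inhibitor of miR-191, called anti-miR-191, was brought into the cells with the lipid reagent Oligofectamine, and control cells received a negative control anti-miR in its place. The treatment was done in 2 independent experiments, each with 1 anti-miR-191 array and 1 control array, so that each group holds 2 arrays. Every culture was of the same line and every culture was transfected, and neither an untransfected culture nor a dose or time after transfection is given in the sources used here. Levels are the deposited RMA intensities on the log2 scale, on which a difference of 1 is a doubling of intensity, and array medians lay between 4.37 and 4.43. The number of arrays limits the precision, and p-values measure the spread between these arrays, since the labels do not describe what the independent experiments shared.

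Alpha-arrestins carry the arrestin fold of the better known beta-arrestins, with a tail that in most members holds short proline and tyrosine motifs. These motifs bind the WW domains of NEDD4-type ubiquitin ligases, so that an alpha-arrestin can bring such a ligase to a membrane protein and send that protein into the cell or to degradation. TXNIP also binds and inhibits thioredoxin, lowers glucose uptake, and is a standard readout of the glucose-sensing factors MondoA and ChREBP in liver cells. ARRDC4 is induced by the same factors, ARRDC3 acts on integrin beta-4, and ARRDC1 recruits the ESCRT protein TSG101 to bud vesicles from the cell surface.

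The microRNA that the inhibitor is named for is encoded on chromosome 3. The labels do not name the arm, and the 5p strand is shown because the plain name usually means it. Its RefSeq sequence (GRCh38.p14, chr3:49020672-49020694, minus strand) has 23 bases, with the seed, bases 2 to 8, in capitals.
hsa-miR-191-5p: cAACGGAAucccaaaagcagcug
Sites for this seed in the transcripts of the 5 genes were not analysed here. The array row for the precursor MIR191 read 5.22 and 5.14 after anti-miR-191 and 4.97 and 4.75 in controls, a mean difference of 0.32 with limma's adjusted p = 0.302. An anti-miR acts on the mature strand, so this row does not check the inhibition.

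The promoter windows of 3 genes are shown, because TXNIP and ARRDC3 had the largest differences and because ARRDC4 shares the glucose-sensing input of TXNIP. Each RefSeq window (GRCh38.p14) runs 5′ to 3′ from 250 bases before an annotated transcription start to 50 bases from it on. Capitals mark matches to the E-box CACGTG, the FOXO core GTAAACA and the CCAAT box, on either strand. They also mark TGANTCA, which is broader than the usual AP-1 site. MondoA and ChREBP use pairs of E-box-like sites, and variants of CACGTG are not marked. TXNIP start 1 lies at chr1:145996530-145996829 on the minus strand, ARRDC3 start 2 at chr5:91380048-91380347 on the minus strand and ARRDC4 start 1 at chr15:97960453-97960752 on the plus strand.
TXNIP start 1: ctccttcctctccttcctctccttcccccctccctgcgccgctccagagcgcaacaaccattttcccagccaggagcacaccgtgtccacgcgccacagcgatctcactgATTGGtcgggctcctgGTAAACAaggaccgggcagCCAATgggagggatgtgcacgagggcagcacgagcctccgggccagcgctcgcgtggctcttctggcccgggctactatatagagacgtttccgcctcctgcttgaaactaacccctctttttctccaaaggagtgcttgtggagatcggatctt
ARRDC3 start 2: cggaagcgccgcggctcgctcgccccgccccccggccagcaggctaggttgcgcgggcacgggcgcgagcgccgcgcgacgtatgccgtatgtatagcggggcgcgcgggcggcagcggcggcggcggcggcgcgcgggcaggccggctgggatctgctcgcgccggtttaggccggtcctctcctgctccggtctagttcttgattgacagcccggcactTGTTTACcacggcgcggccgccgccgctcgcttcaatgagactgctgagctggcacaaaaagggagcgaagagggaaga
ARRDC4 start 1: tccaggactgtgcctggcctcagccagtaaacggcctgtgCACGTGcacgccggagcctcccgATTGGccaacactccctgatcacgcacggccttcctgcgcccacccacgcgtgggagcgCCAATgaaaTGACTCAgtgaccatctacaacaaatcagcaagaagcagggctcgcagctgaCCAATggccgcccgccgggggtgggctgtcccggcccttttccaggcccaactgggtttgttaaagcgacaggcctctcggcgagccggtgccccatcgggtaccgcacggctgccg
RefSeq gave 8 windows for the 5 genes, and the other 5 windows are described below by their matches.

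ARRDC3 and TXNIP were far higher after anti-miR-191 in both experiments, ARRDC4 and ARRDC2 were slightly higher, and ARRDC1 was slightly lower. ARRDC3 was 3.26 ± 0.36 higher on the log2 scale (SD over the 2 experiments, n = 2) and TXNIP was 2.25 ± 1.12 higher (SD, n = 2). ARRDC4 was 0.58 ± 0.54 higher (SD, n = 2), ARRDC2 was 0.35 ± 0.03 higher (SD, n = 2), and ARRDC1 differed by -0.21 ± 0.05 (SD, n = 2). Over all 14147 genes tested the median difference was 0.01. In bulk RNA, a larger share of cells with a transcript and more of it per cell cannot be told apart. Of the 5 genes 4 were higher in both experiments, as were 36.5% of all genes tested. ARRDC3 and TXNIP, 2 of the 5, were at least 1.5-fold higher in both experiments, as were 6.45% of all genes tested. Since the family was chosen for ARRDC3, nothing is read from these counts.

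**Figure D1:**
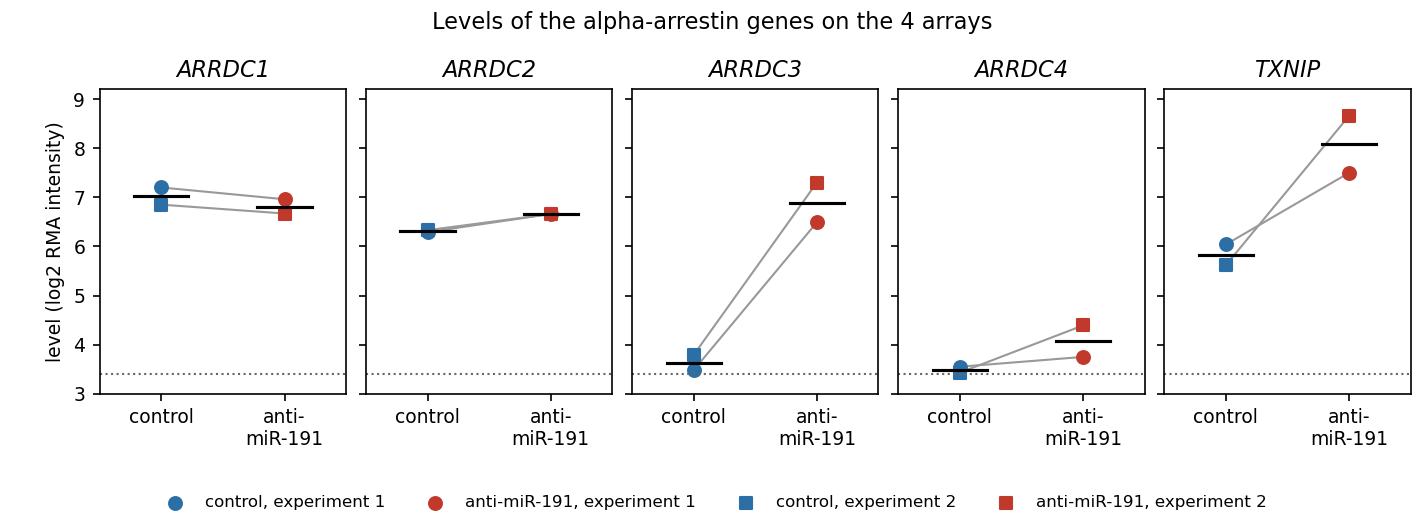
Levels of the 5 alpha-arrestin genes on the 4 arrays, as log2 RMA intensity on the vertical axis, with controls in blue and anti-miR-191 arrays in red, circles for experiment 1 and squares for experiment 2. Grey lines join the arrays of 1 experiment, black bars are means of 2 arrays, and the dotted line is the level of 3.41 under which rows were left out; ARRDC3 and ARRDC4 start close to it in controls, while TXNIP starts at 5.83.

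ARRDC3 encodes an adaptor that directs integrin beta-4 to ubiquitination. It read 6.49 in experiment 1 and 7.30 in experiment 2 after anti-miR-191, and 3.48 and 3.79 in the matching controls. The lowest anti-miR-191 array lay 2.70 above the highest control, so the groups were far apart. The difference was 3.01 in experiment 1, the largest of all 14147 genes, and 3.52 in experiment 2, where it was in place 2. The control mean of 3.63 lay only 0.22 above 3.41, the limit under which rows were left out as dim. Whether ARRDC3 was above background in controls is therefore not shown. The differences and places above are those of array levels, and no fold in RNA is given.

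TXNIP, the thioredoxin-binding member, started from a level clear of that limit. It read 7.50 and 8.66 after anti-miR-191 and 6.04 and 5.62 in controls. Both anti-miR-191 arrays were above both controls, with a gap of 1.47 between the groups. The difference was 1.47 in experiment 1 (2.76-fold, place 104 of 14147) and 3.04 in experiment 2 (8.24-fold, place 12). The experiments thus gave unequal sizes. Their gap of 1.58 on the log2 scale was larger than that of 99.8% of the genes tested, with an SD of 0.377 over genes. Both groups took part in it, since the anti-miR-191 array of experiment 2 was 1.16 higher than that of experiment 1 and the control of experiment 2 was 0.42 lower. With 1 array per group and experiment, this inequality has no test.

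ARRDC4, which responds to glucose through the same factors as TXNIP, read close to the limit for dim rows in controls. It read 3.75 and 4.39 after anti-miR-191 and 3.55 and 3.43 in controls. The groups did not overlap, but their gap was 0.20, and the control mean of 3.49 lay 0.07 above the limit for dim rows. The difference was 0.20 in experiment 1 and 0.97 in experiment 2. As for TXNIP the larger difference was in experiment 2, and the gap of 0.76 between experiments exceeded that of 94.8% of the genes tested. Some hepatocyte products also gave unequal differences in the 2 experiments, and others did not. In experiments 1 and 2 ALB differed by 0.48 and -0.93, AFP by 0.16 and -1.24, APOB by 0.02 and -1.09 and FGB by 0.01 and -0.88. TF differed by 0.03 and -0.35. The differences were closer for TTR (-1.01 and -1.07), APOA1 (-0.40 and -0.56) and SERPINA1 (-0.03 and -0.09). The part of these genes in the unequal differences of TXNIP and ARRDC4 was not tested.

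ARRDC2 and ARRDC1 differed little. ARRDC2, a less studied member, read 6.66 on both anti-miR-191 arrays and 6.29 and 6.33 in controls. The groups did not overlap, and the differences of 0.37 and 0.33 were nearly equal in both experiments. Their mean was higher than that of 79.6% of the genes tested, and quantile normalization lowered it to 0.23. ARRDC1, the vesicle-budding member, read 6.96 and 6.67 after anti-miR-191 and 7.20 and 6.85 in controls. Here the groups overlapped, and the differences were -0.25 and -0.18. In all, 4 of the 5 genes had groups that did not overlap, against 53.2% of all genes tested (29.4% with anti-miR-191 arrays above both controls and 23.8% with them below). The antisense gene ARRDC1-AS1, named after its values were seen, differed by -0.08 and 0.33.

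**Figure D2:**
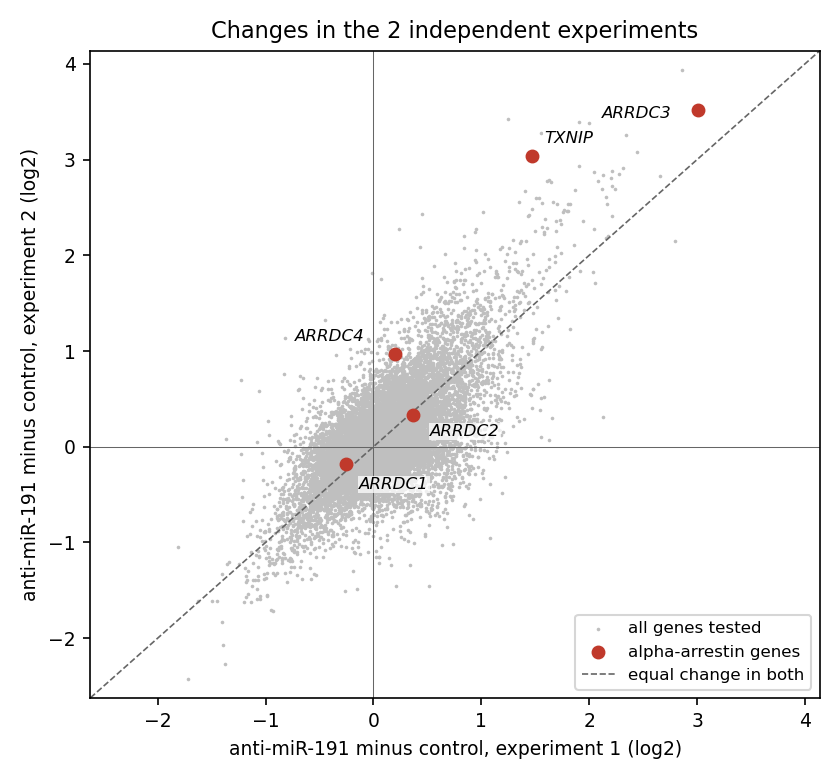
Difference between anti-miR-191 and control (log2) in experiment 1 on the horizontal axis and in experiment 2 on the vertical axis, for the 14147 genes tested in grey and the 5 alpha-arrestin genes in red. ARRDC3 (3.01 and 3.52) lies at the edge of the cloud, TXNIP (1.47 and 3.04) and ARRDC4 (0.20 and 0.97) lie above the dashed line of equal differences, and ARRDC2 and ARRDC1 lie within the cloud.

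The level of each gene was also compared between the experiments, a contrast that did not choose the genes. A limma fit of all 4 arrays, with the treatment in the model, gave experiment 2 minus experiment 1. Of the 5 genes 0 passed an adjusted p of 0.05 (1 at an unadjusted p under 0.05), against 0.318% of the 14147 genes tested (0.304% higher and 0.0141% lower in experiment 2). ARRDC3 was 0.56 ± 0.17 higher in experiment 2 (SE, 4 arrays), with an unadjusted p of 0.012 and an adjusted p = 0.256 in limma. It was higher in experiment 2 on both the anti-miR-191 and the control array, by 0.81 and 0.30. ARRDC1 had -0.32 ± 0.14 (SE; limma adjusted p = 0.433), with the array of experiment 2 lower in both groups. TXNIP had 0.37 ± 0.32, ARRDC4 had 0.26 ± 0.20 and ARRDC2 had 0.03 ± 0.14 (SE), and their adjusted p in limma ran from 0.656 to 0.960. In TXNIP and ARRDC4 the groups went opposite ways, the anti-miR-191 arrays higher and the controls lower in experiment 2. The fit has 1 residual degree of freedom, so a shift of this size that misses the threshold does not show equal levels.

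The genes most like each member over the 4 arrays were found by the root-mean-square difference of log2 values centred on each gene's mean. This measure follows the size of the difference between the groups, which chose the family, so the distances are a description and are not compared between members. The nearest genes to ARRDC3 were CYP1A1 (0.241), CLIP4 (0.253) and NABP1 (0.345). The nearest to TXNIP were RFPL4A (0.113), EDN1 (0.124) and DDIT3 (0.134). TCFL5, HOMER2 and DIABLO were nearest to ARRDC4 (0.026 to 0.039), LIMS1, BCL2L1 and TMF1 to ARRDC2 (0.009 to 0.016), and KDF1, ACOX2 and SPRYD3 to ARRDC1 (0.008 to 0.011). Within a distance of 0.25 lay 1639 genes for ARRDC4, 7660 for ARRDC2 and 7229 for ARRDC1, beside 21 for TXNIP and 1 for ARRDC3. These counts also follow the size of the difference. Genes near ARRDC4, ARRDC2 and ARRDC1 are thus common, and nothing is read from the names given for them.

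Among the promoter windows of the members, only ARRDC3 start 2 and TXNIP start 1 held a FOXO core. These members had the largest differences, but the family was chosen for ARRDC3, so nothing is read from the match. TXNIP start 1 holds GTAAACA 124 bases before the start, between CCAAT boxes at 140 and 105 bases before it. ARRDC3 start 2 holds its reverse complement, TGTTTAC, 29 bases before the start, and ARRDC3 start 1 holds a CCAAT box only. This core is in 3.42% of all 35116 RefSeq windows. ARRDC4 has the E-box, 210 bases before the start, a motif in 7.26% of windows, beside the TGANTCA match TGACTCA at 119 bases and CCAAT boxes at 187, 128 and 67 bases. No member window holds an exact pair of CACGTG E-boxes 5 bases apart, which 0.0057% of all windows hold. Variants of CACGTG were not searched, and TXNIP start 1 reads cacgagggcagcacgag, with cacgag on both sides of 5 bases. ARRDC2 start 1 holds the TGANTCA match TGATTCA, a motif in 7.71% of windows. ARRDC1 start 1 and ARRDC2 start 2 hold a CCAAT box, a motif in 34.6% of windows, and TXNIP start 2 holds none of the motifs.

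Over all genes, the difference between anti-miR-191 and control was set beside these motifs. The 374 genes tested with a FOXO core in a window had a median difference of 0.02, as did all 11054 genes tested with any window. Of the 374, 4.01% rose in the unpaired limma fit and 10.4% with the experiment as a block, against 3.33% and 10.8% of all genes with a window. The median was 0.05 for genes with an E-box and 0.04 for those with TGANTCA. The matches are descriptions of letters in these windows, and binding was not measured.

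**Figure D3:**
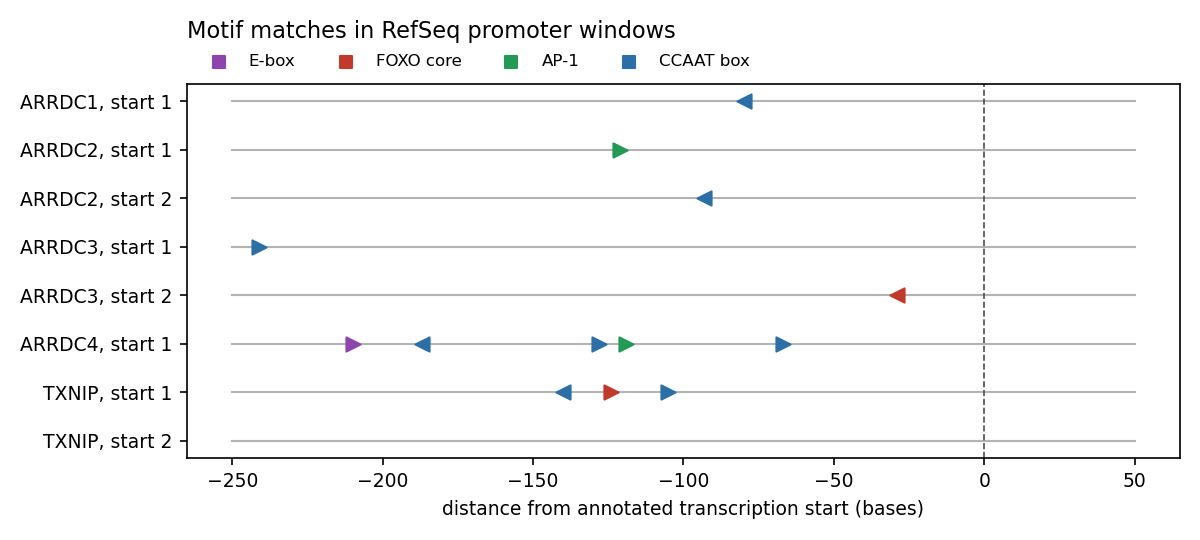
Matches to the E-box, FOXO core, TGANTCA (AP-1) and CCAAT motifs in the 8 RefSeq promoter windows of the 5 alpha-arrestin genes, by distance in bases from each annotated start (dashed line at 0). Arrowheads point right for the gene's strand or a motif that reads the same on both strands and left for the other strand. TXNIP start 1 and ARRDC3 start 2 hold the FOXO core, and ARRDC4 holds the exact E-box CACGTG.

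Genes that act with the alpha-arrestins were examined in 8 lists, with 96 of 112 listed genes tested. The words rose and fell are used for partner genes past an adjusted p of 0.05 in limma's unpaired fit, which compares 2 arrays with 2. Beside it stands the count with the experiment as a block, since the experiments pair the arrays, and a gene that passed with the block only did so in that one of these 2 fits. In the unpaired fit 3.2% of the 14147 genes tested rose and 0.714% fell, and with the block 10.1% were higher and 3.77% lower. Over the 8 lists 12 genes rose and 2 fell in the unpaired fit, and 22 were higher and 3 lower with the block. These calls rest on all 4 arrays. With the anti-miR-191 array of experiment 1 left out, the unpaired fit called 12 partner genes higher and 0 lower (5 lower at an unadjusted p under 0.05). Leaving out the anti-miR-191 array of experiment 2, the control of experiment 1 or the control of experiment 2 gave 0 in either direction, with 20, 25 and 31 higher and 3, 5 and 4 lower at an unadjusted p under 0.05.

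Some of the NEDD4-type ubiquitin ligases rose, and others did not pass. Of 9 tested genes of the NEDD4-type list 3 rose and 0 fell (0 lower at an unadjusted p under 0.05 in limma), and 4 were higher with the block. SMURF2 and SMURF1, ligases best known for acting on SMAD proteins, rose 3.46-fold (1.79 ± 0.22, SE) and 2.60-fold (1.38 ± 0.15, SE). SMURF2 read 7.40 and 7.79 after anti-miR-191 against 5.59 and 6.02 in controls. NEDD4L, a ligase of epithelial ion channels, rose 2.17-fold, with differences of 1.05 and 1.19. The adjusted p of these 3 lay between 0.022 and 0.031 in limma's unpaired fit. ITCH, a ligase of JUN and NOTCH, differed by 1.22 and 0.60 and passed with the block only (limma adjusted p = 0.018; 0.096 unpaired). WWP1 and WWP2, which bind several alpha-arrestins, differed by -0.11 and -0.17 on average and passed in neither fit, and NEDD4 itself was left out as dim. The median difference of the list was 0.06.

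Most thioredoxin partners of TXNIP did not pass. Of 13 tested genes 1 rose and 1 fell in the unpaired fit, and 2 were higher and 2 lower with the block, with a median difference of -0.18. SRXN1, which restores oxidised peroxiredoxins, rose 2.06-fold (1.04 ± 0.15, SE; limma adjusted p = 0.028). PRDX4, the peroxiredoxin of the endoplasmic reticulum, fell by 0.78 ± 0.14 on the log2 scale (SE; limma adjusted p = 0.041). TXN, the cytosolic thioredoxin that TXNIP binds, read 9.48 and 9.95 after anti-miR-191 and 9.57 and 9.34 in controls, and did not pass (limma adjusted p = 0.524). The mitochondrial thioredoxin TXN2 differed by -0.57 and -0.65, and the glutaredoxin GLRX by 0.66 and 0.93. Both passed with the block only (limma adjusted p = 0.030 and 0.015).

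Among the glucose-sensing factors and their targets 1 of 17 tested genes rose and 0 fell (1 lower at an unadjusted p under 0.05 in limma), and 3 were higher with the block. KLF10, a zinc finger repressor that ChREBP induces and that also responds to growth factors, rose 3.93-fold (limma adjusted p = 0.040), and missed the threshold after cyclic loess and with dim rows kept (0.051 and 0.053). MLXIP, which encodes MondoA, differed by 0.64 and 0.46 and passed with the block only (limma adjusted p = 0.048). It lost that call under each other scaling and when rows below the median level were left out (adjusted p between 0.052 and 0.101). MID1IP1, a regulator of fat synthesis, differed by 0.53 and 1.28 and passed with the block (limma adjusted p = 0.024), but not with the block after quantile normalization (adjusted p = 0.066). With the experiment 1 anti-miR-191 array left out it also passed in the unpaired fit (adjusted p = 0.039). The partner MLX differed by 0.40 on average and MLXIPL, which encodes ChREBP, by 0.05, and neither passed in either fit. MLXIPL turned to -0.07 after quantile normalization and to -0.01 after cyclic loess. The median difference of the list was 0.05, in a range from -0.64 to 1.97.

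Most genes of the ESCRT machinery, which ARRDC1 uses for vesicle budding, did not pass either. Of 18 tested 1 rose and 1 fell in the unpaired fit, and 3 were higher and 1 lower with the block, with a median difference of 0.13. STAM, which sorts ubiquitinated cargo, rose 1.92-fold (limma adjusted p = 0.034), and MVB12A, a subunit of ESCRT-I, fell by 0.81 ± 0.15 (SE; limma adjusted p = 0.041). VPS37B and CHMP4C had mean differences of 0.85 and 0.67 and passed with the block only (limma adjusted p = 0.011 and 0.024), CHMP4C not after quantile normalization (adjusted p = 0.052). TSG101, the direct partner of ARRDC1, differed by 0.40 and 0.68 and passed in neither fit (limma adjusted p = 0.137, and 0.056 with the block), but passed with the block when dim rows were kept (0.049).

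Genes of proteins that alpha-arrestins are known to act on, and other genes with the arrestin fold, showed no calls. The arrays measure RNA, so the amount of these proteins and their place in the cell were not measured. Of 10 tested receptors and transporters 0 passed in either limma fit (2 higher at an unadjusted p under 0.05 in the unpaired fit and 4 with the block). The glucose transporter SLC2A1, which TXNIP removes from the surface, differed by 0.43 and 0.46, and integrin ITGB4, a client of ARRDC3, by 0.43 and 0.50. Their adjusted p was 0.143 and 0.261 in limma's unpaired fit. The list had a median difference of 0.25. Of 6 tested arrestin-fold genes 0 passed in either limma fit (1 higher at an unadjusted p under 0.05 in each). The beta-arrestin ARRB1 differed by -0.30 and 0.09. ARRB2 and ARRDC5 had no row with a single symbol and were not analysed here.

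FOXO and glucocorticoid signalling are established inducers of alpha-arrestin genes. Their lists had the highest medians of the 8, but the lists were chosen with earlier results of these data known. Nothing is read from that order, and whether either input was active was not tested. The list of FOXO-responsive genes also holds the factor genes FOXO1, FOXO3 and FOXO4. Of its 14 tested genes 3 rose and 0 fell (0 lower at an unadjusted p under 0.05 in limma), and 4 were higher with the block, with a median difference of 0.36. The 3 that rose were the stress gene GADD45A (3.96-fold), the insulin-responsive secreted protein IGFBP1 (3.39-fold) and the transcriptional coregulator CITED2 (3.18-fold). IGFBP1 sat at the threshold (limma adjusted p = 0.04996), and both it and CITED2 missed it after cyclic loess (adjusted p = 0.059 and 0.051) and with dim rows kept (0.067 and 0.052). Apart from these 3 and CDKN1B, the tested genes of the list passed in neither fit, with mean differences from -0.17 (IRS2) to 0.56 (BCL2L11). SESN3, FBXO32, PDK4 and KLHL24 were left out as dim. The cell cycle inhibitor CDKN1B differed by 1.30 and 1.57 and passed with the block (limma adjusted p = 0.003, and 0.063 unpaired). It also passed in the unpaired fit after median centring (adjusted p = 0.038) and with the experiment 1 anti-miR-191 array left out (0.035).

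The list of glucocorticoid-responsive genes also holds the gene of the receptor itself, NR3C1, which is among those counted here. Of its 9 tested genes 3 rose and 0 fell (0 lower at an unadjusted p under 0.05 in limma), and 6 were higher with the block, with a median difference of 0.82. The phosphatase DUSP1 rose 6.95-fold, and the kinase SGK1 rose 2.55-fold, from control levels of 3.94 and 4.01. The receptor gene NR3C1 was at 5.08 and 5.54 after anti-miR-191 and 4.26 and 4.36 in controls (limma adjusted p = 0.048). It missed the threshold after cyclic loess and with dim rows kept (0.053 and 0.056). TSC22D3, ERRFI1 and PER1 had mean differences of 0.82, 1.17 and 0.64 and passed with the block but not in the unpaired fit, which TSC22D3 passed after median centring (limma adjusted p = 0.049). PER1 lost that call under the 3 other scalings and when rows below the median level were left out, where its adjusted p ran from 0.055 to 0.095. KLF9, ZBTB16 and TAT had mean differences of -0.05, -0.07 and 0.43 and passed in neither fit. FKBP5 had no row with a single symbol. DUSP1, GADD45A, KLF10 and ERRFI1 also respond to growth factors and stress, so membership of a list does not show which input was active.

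**Figure D4:**
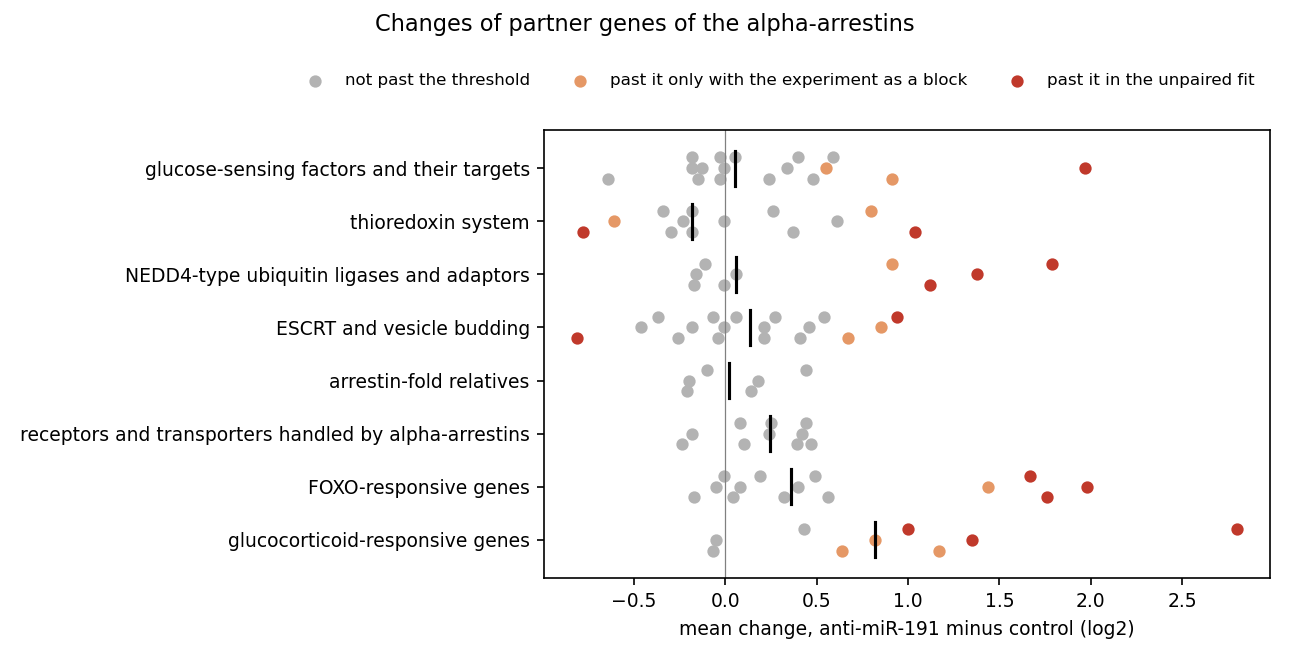
Mean difference between anti-miR-191 and control (log2) for the 96 partner genes tested, by list. Red points passed an adjusted p of 0.05 in limma's unpaired fit, orange points only with the experiment as a block, grey points in neither, and black bars are list medians; the medians run from -0.18 (thioredoxin system) to 0.82 (glucocorticoid-responsive genes).

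The labelled cell type was checked against marker genes. All 8 hepatocyte-type markers read above the median of all rows (4.41) on every array, ALB, TF and SERPINA1 at 9.65 or more and FGB lowest, at 4.72 to 5.59. Of the 8 only TTR, a thyroid hormone carrier, passed, and it fell by 1.04 on the log2 scale (limma adjusted p = 0.038). The summed linear intensity of the 8 was 10681 in experiment 1 and 7988 in experiment 2 after anti-miR-191 and 11921 and 12328 on the controls. On the array with the lowest sum ARRDC3, TXNIP and ARRDC4 were highest and ARRDC1 was lowest, while ARRDC2 read 6.66 on both anti-miR-191 arrays. Of 12 markers of other cell types 7 read below the median of all rows on every array, and PTPRC and PECAM1 were left out as dim. The other 5, LYZ, COL1A1, DES, KRT14 and GFAP, read above it, LYZ at up to 9.65. Of the 12, 0 passed in either limma fit (0 at an unadjusted p under 0.05 unpaired and 0 with the block). Their summed linear intensity was 1078 and 984 after anti-miR-191 and 897 and 867 in controls. That sum mostly follows LYZ, which read 9.65 and 9.47 after anti-miR-191 and 9.25 and 9.23 in controls. COL1A1, the next brightest, read at most 6.13, so the sum does not show that these markers moved together. The part of these markers in the values of the alpha-arrestin genes was not tested.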

How the data were processed

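The authors' deposited values are log2 intensities per probe set, which the submitters' processing notes trace to RMA and the Affymetrix Expression Console, with versions not given in the sources used here. RMA brings the levels of arrays close to each other, so a shift shared by most genes would not be seen. Spreads were less alike than medians. The interquartile range was wider after anti-miR-191 (3.38 and 3.43 in experiments 1 and 2) than in controls (3.18 and 3.24). The part of this wider spread in the small differences of ARRDC1 and ARRDC2 was not tested. Of 33297 rows, 19460 carry 1 gene symbol in the platform annotation of 2016, 1754 carry several and 12083 carry none and were left out of gene names. The lowest 33.3% of rows by mean over the 4 arrays (level under 3.41) were left out, and the brightest row stood for each gene, which left 14147 genes.

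Differences were tested with limma 3.58.1 in R 4.3.3 (lmFit and eBayes) with Benjamini-Hochberg adjustment over all 14147 genes and a threshold of 0.05. The main fit compared 2 arrays with 2, and an alternative held the experiment as a block. The numbers in the sample titles pair the arrays, because the series text calls the duplicates independent experiments. Same-numbered arrays deviated together, with a correlation of 0.335 over genes. The fits were checked on simulated data. The 5 genes, the partner lists and tests were chosen with earlier results of these data known. Named partner genes were up to 6 of each list with the largest mean difference among those past the threshold in either fit, and a fixed set of direct partners. Alternatives were other scalings, other limits on dim rows and leaving out each array. Promoter and microRNA sequences are from RefSeq tables on GRCh38.p14, searched for exact motif matches on both strands.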

Additional observations from a re-analysis of the deposited data

How the results depend on the processing

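The differences of the 5 alpha-arrestin genes between anti-miR-191 and control kept their direction under median centring, quantile normalization, cyclic loess and with each array left out. ARRDC1 moved to -0.34 with quantile normalization and -0.27 with cyclic loess, and ARRDC2 to 0.23 and 0.29. With each array left out in turn, ARRDC1 lay between -0.39 and -0.03, ARRDC2 between 0.33 and 0.37, ARRDC3 between 2.85 and 3.67, ARRDC4 between 0.26 and 0.91 and TXNIP between 1.67 and 2.83. ARRDC4 was not among the genes left when rows below the median level were removed. The small experiment difference of ARRDC2 turned to -0.02 after median centring and to -0.02 after quantile normalization. With the experiment as a block, 1428 genes passed higher and 533 lower in limma, against 452 and 101 in the unpaired fit, and 22 partner genes passed higher against 12. The genes passing lower numbered 154 after median centring and 163 after quantile normalization. With an array left out, limma's unpaired fit gave 0 to 315 genes higher (1189 to 2250 at an unadjusted p under 0.05) and 0 to 24 lower, and 0 to 12 partner genes higher and 0 lower. Between the experiments 45 genes passed, 24 after median centring, 16 after quantile normalization, 70 with no limit on dim rows and 23 with rows below the median level left out. Among named partner genes, MLXIPL turned to -0.07 with quantile normalization and -0.01 with cyclic loess, with or without the block. With an array left out, ARRB1 ran from -0.38 to 0.18 (above 0 without control replicate 1), WWP1 from -0.24 to 0.01 (above 0 without anti-miR-191 replicate 1) and MLXIPL from -0.12 to 0.22 (-0.05 without anti-miR-191 replicate 1 and -0.12 without control replicate 2). Fits of the block or of the experiment contrast with an array left out have no residual degrees of freedom and were not run. For the changes given here beyond those that follow from fewer arrays or another set of genes tested, the cause was not tested. The block combined with another scaling or limit was added after seeing the data.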

Other observations

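The genes next to the alpha-arrestin genes on their chromosomes were chosen after the data were seen, as the nearest tested gene on either side in RefSeq order. ARRDC3 on chromosome 5 lies between POLR3G, which encodes a subunit of RNA polymerase III, and the nuclear receptor gene NR2F1. POLR3G differed by -0.38 and -0.92 in experiments 1 and 2, and NR2F1 by 0.25 and 0.32, beside 3.01 and 3.52 for ARRDC3. POLR3G passed only with the experiment as a block (limma adjusted p = 0.046; 0.153 unpaired), and NR2F1 passed in neither fit (0.329 unpaired).

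TXNIP on chromosome 1 lies between POLR3GL, the paralogue of POLR3G, and the hemojuvelin gene HJV. POLR3GL differed by -0.27 and -0.29 and HJV by -0.04 and -0.42, and neither passed in limma's unpaired fit (adjusted p = 0.348 and 0.474). The neighbours tested for ARRDC1 on chromosome 9 were ZMYND19 and ARRDC1-AS1, with mean differences of -0.37 and 0.12. For ARRDC2 on chromosome 19 KCNN1 and IL12RB1 differed by 0.04 and -0.36, and for ARRDC4 on chromosome 15 MCTP2 and FAM169BP differed by -0.15 and -0.11.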
